A study of Homo sapiens with 4 samples.

Results

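Flag-FLI1 binding was examined at 10 genes of transforming growth factor β (TGF-β) signalling, taken by their GENCODE 44 symbols from 62700 annotated genes: the ligands *TGFB1* and *TGFB2*, the receptors *TGFBR1* and *TGFBR2*, the receptor SMADs *SMAD2* and *SMAD3*, the common partner *SMAD4*, the inhibitory SMADs *SMAD6* and *SMAD7*, and the corepressor *SKIL*. Every peak within 3 kb of an annotated transcription start site (TSS) of a gene, inside the gene, or within 50 kb of it was assigned to that gene. This gave 64 of the 30819 peaks in control cells and 77 of the 39654 peaks in IFN-γ-treated cells. The cells were HK1, an established line from nasopharyngeal carcinoma, made to overexpress Flag-tagged FLI1 in both conditions. They received PBS (control) or IFN-γ for 24 h, and chromatin was precipitated with an antibody to Flag, so native FLI1 was not measured. There was 1 ChIP library per condition, and the matched input libraries were not analysed here. An effect of IFN-γ was therefore not tested, and each comparison below is between 2 libraries. The lists give no expression values, so the identity of the cells was not checked against marker genes.

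TGF-β ligands are secreted in a latent form and, once released, bring together the receptors TGFBR2 and TGFBR1, which are serine/threonine kinases. TGFBR2 phosphorylates TGFBR1, and TGFBR1 phosphorylates SMAD2 and SMAD3, which enter the nucleus with SMAD4 and regulate genes together with other transcription factors. SMAD7, and in the bone morphogenetic protein branch SMAD6, act back on the receptors as inhibitors, and SnoN, the product of *SKIL*, holds SMAD complexes inactive. In epithelial cells the pathway is known for growth arrest and for epithelial-mesenchymal transition. FLI1 is an ETS factor, and ETS factors bind a GGAA core, written TTCC when it lies on the other strand.

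The sequences under the peaks on which the results turn are shown first, from GRCh38 and on the strand of the gene, with every GGAA or TTCC core in capitals. The promoters of *SKIL* and *TGFBR2* held the strongest peaks over a canonical start site among these genes in the control library. Both windows stop at the base before the annotated transcript. For *TGFBR2* the IFN-γ summit lay within the window, 27 bp upstream of the TSS, and the control summit lay 21 bp downstream of it, outside the window.
SKIL promoter, chr3:170357209-170357341, plus strand: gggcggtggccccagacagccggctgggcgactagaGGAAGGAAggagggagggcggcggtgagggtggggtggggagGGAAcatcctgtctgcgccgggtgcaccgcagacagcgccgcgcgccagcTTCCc
TGFBR2 promoter, chr3:30606522-30606600, plus strand: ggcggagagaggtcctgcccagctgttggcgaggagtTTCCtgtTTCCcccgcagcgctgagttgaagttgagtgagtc

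Next are 4 windows of 161 bases centred on a summit inside an annotated gene. The *SMAD3* and *SMAD7* sites had the highest ratios of IFN-γ over control among peaks inside these genes, the *TGFBR2* site was the strongest of that gene in the IFN-γ library, and the *TGFB1* site had the highest fold enrichment of that gene in the control library.
SMAD3 intron 1, chr15:67150453-67150613, plus strand: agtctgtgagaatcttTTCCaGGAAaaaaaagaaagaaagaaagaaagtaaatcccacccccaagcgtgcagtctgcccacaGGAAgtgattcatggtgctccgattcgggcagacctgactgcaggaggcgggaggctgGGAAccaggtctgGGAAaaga
SMAD7 intron 3, chr18:48934813-48934973, minus strand: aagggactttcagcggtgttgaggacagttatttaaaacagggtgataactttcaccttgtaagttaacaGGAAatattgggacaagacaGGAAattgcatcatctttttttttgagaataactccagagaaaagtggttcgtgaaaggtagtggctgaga
TGFBR2 intron 5, chr3:30681819-30681979, plus strand: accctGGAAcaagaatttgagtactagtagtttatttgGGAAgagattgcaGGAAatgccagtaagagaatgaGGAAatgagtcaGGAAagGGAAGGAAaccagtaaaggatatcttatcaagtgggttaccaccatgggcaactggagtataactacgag
TGFB1 downstream, chr19:41327524-41327684, minus strand: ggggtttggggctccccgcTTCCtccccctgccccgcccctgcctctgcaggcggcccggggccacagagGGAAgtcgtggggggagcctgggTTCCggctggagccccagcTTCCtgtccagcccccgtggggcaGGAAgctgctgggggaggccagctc
The core counts differed between these windows, from 2 in *SMAD7* to 7 in *TGFBR2*. In the *SMAD3* window the octamer CAGGAAGT, at bases 81 to 88, shared its last base with the AP-1 motif TGATTCA at bases 88 to 94. Such an overlap lay within 100 bp of the summit in 0.178% of all control peaks and 0.235% of all IFN-γ peaks, and in 1 peak of these genes in each library. The same window held TTCCAGGAA at bases 17 to 25, a match to TTCNNNGAA, the motif of STAT dimers, which overlaps both cores there. In the *TGFBR2* window an AP-1 motif, TGAGTCA, lay at bases 79 to 85 between GGAA cores. That window also held GAAAGGGAA at bases 87 to 95, a match to GAAANNGAA, a core of interferon response elements.

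Finally, 2 examples are shown of windows downstream of a gene that hold tandem GGAA repeats, here read as TTCC. Each is centred on the IFN-γ summit, which lay within the longest run at *SMAD7*. At *TGFBR2* the summits of the libraries lay on either side of the longest run.
TGFBR2 downstream, chr3:30733490-30733650, plus strand: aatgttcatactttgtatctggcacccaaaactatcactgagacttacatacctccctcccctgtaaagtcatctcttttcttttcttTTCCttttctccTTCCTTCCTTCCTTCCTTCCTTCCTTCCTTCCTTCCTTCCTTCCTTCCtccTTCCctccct
SMAD7 downstream, chr18:48905189-48905349, minus strand: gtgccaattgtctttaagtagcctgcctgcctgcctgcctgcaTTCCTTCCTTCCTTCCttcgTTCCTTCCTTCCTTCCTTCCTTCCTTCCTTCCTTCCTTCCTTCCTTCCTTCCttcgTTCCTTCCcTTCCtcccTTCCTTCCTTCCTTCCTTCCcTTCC
The longest unbroken run in the windows shown had 12 units at *TGFBR2* and 13 at *SMAD7*. The *TGFBR2* window also held a match to GAAANNGAA at bases 89 to 97, on the other strand.

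Peaks were spread very unevenly over the pathway. *SMAD3*, the receptor SMAD, and *TGFB1*, the ligand, had the most, with 17 and 14 peaks in the control library and 22 and 15 in the IFN-γ library. *SMAD7* followed with 11 and 14, *SMAD6* with 7 and 9, and *TGFBR2* with 7 and 8. *TGFB2* had 3 in each library, *SMAD2* had 2 and 3, *SKIL* had 1 and 2, *TGFBR1* had 1 in each, and *SMAD4* had 1 in the control library and none in the other. Protein-coding genes had a median of 3 peaks within the same distance in both libraries. At least 17 peaks were found for 0.524% of the 20046 protein-coding genes in the control library, and at least 22 for 0.0599% in the IFN-γ library, so few genes matched *SMAD3* by count. Its region was also long, at 231.4 kb against a median of 127.4 kb. Per 100 kb it held 7.35 peaks in the control library, a density reached by 6.67% of protein-coding genes, and 9.51 in the IFN-γ library, reached by 2.41%. *TGFB1* was denser than *SMAD3* in both libraries, with 9.19 and 9.85 peaks per 100 kb, reached by 3.03% and 1.93% of the genes. *SMAD7*, with the shortest region (131.1 kb), had 8.39 and 10.7 peaks per 100 kb, reached by 4.18% and 1.35%. *SMAD4* and *TGFBR1* were sparse, with 0.639 and 0.666 peaks per 100 kb in the control library against a median of 1.82.

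**Figure D1:**
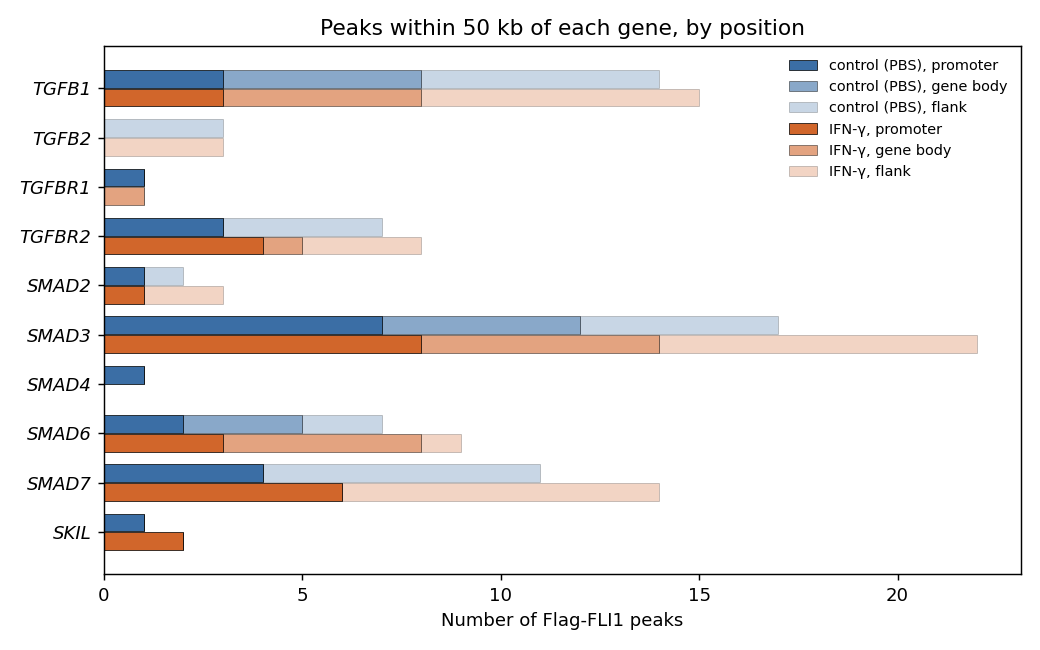
Number of Flag-FLI1 peaks within 50 kb of each gene (x axis) in the control (blue) and IFN-γ (orange) library, with 1 library each. Shading separates promoter peaks (within 3 kb of an annotated TSS), peaks elsewhere in the annotated gene and peaks in the flanks. *SMAD3* reached 17 and 22 peaks, and *SMAD4* had 1 and 0.

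All 10 genes had at least 1 peak in their region in the control library and 9 had in the IFN-γ library, against 85.8% and 88.8% of protein-coding genes. The IFN-γ library had more peaks at 7 genes, fewer at 1 and the same number at 2. It was also the deeper library, by a factor of 1.46 as estimated from the lowest background in each list. When the IFN-γ list was cut to the length of the control list by rank, 62 peaks of these genes were left against 64, so the excess did not hold at equal list length. A missing peak means that the site fell short of the calling cutoff of that library, not that FLI1 was absent from it.

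The promoter, defined as 3 kb either side of any annotated TSS of the gene, held a peak in the control library at 9 of the 10 genes, all but *TGFB2*. In the IFN-γ library this was so at 7 genes, which were among the 9. Over all protein-coding genes the shares were 61.9% and 59.7%, with 56.0% bound in both libraries and 5.90% in the control library only. These genes have from 4 to 20 annotated TSSs, and among protein-coding genes with at least 4 the shares were 74.8% and 72.1%. The promoters called in the control library only were those of *TGFBR1* and *SMAD4*. Both peaks were weak and had the same values, a fold enrichment of 5.35 from 10 fragments at the summit over a background of 1.06 fragments, and 73.6% of the control peaks ranked as high or higher by −log10 p. The kinase TGFBR1 and the partner that all receptor SMADs share thus had the lowest-ranked promoters of the 9 genes with a promoter peak.

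**Figure D2:**
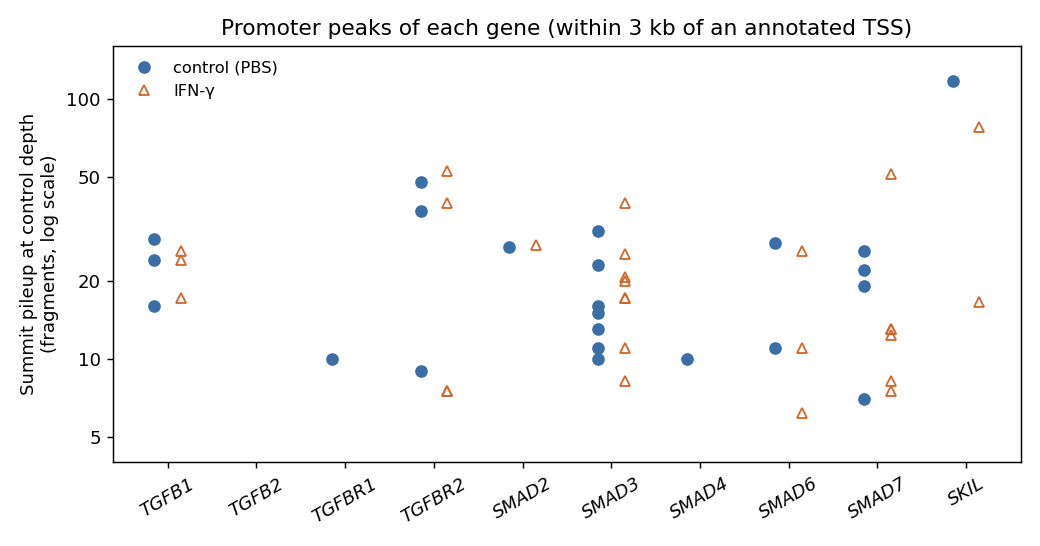
Fragments at the summit of each promoter peak (y axis, log scale, IFN-γ values divided by the relative depth of 1.46) for each gene, with filled circles for the control and open triangles for the IFN-γ library. Each point is 1 peak, not a replicate. *SKIL* stood highest with 117 fragments in the control and 78.3 in the IFN-γ library, and *TGFB2* had no promoter peak.

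An overlap of 1 bp or more with the other list was found for 52 of the 64 control peaks, 81.2% (exact Clopper-Pearson 95% interval, 69.5% to 89.9%). It was found for 60 of the 77 IFN-γ peaks, 77.9% (67.0% to 86.6%). The shares over all peaks were 77.5% and 61.0%. By the median, peaks found in 1 library only had fewer fragments at the summit than shared peaks. In the control library the 12 unshared peaks had 7 to 15 fragments at the summit, with a median of 10, against a median of 21.5 for the shared ones. In the IFN-γ library the 17 unshared peaks had 11 to 37 fragments, with a median of 18, against 31. Some of them lay above the median of all IFN-γ peaks, 22 fragments. By position, 23 control peaks lay at promoters, 13 elsewhere in a gene and 28 in the flanks, and the IFN-γ peaks numbered 27, 18 and 32.

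Shared peaks were paired by the nearest summit and compared by their summit fragments after division by the relative depth. A ratio of IFN-γ over control was called higher or lower where its exact 95% interval, which covers counting error only, left out the median of all 23491 pairs in the libraries, 1.01. The 52 pairs at the TGF-β genes had a median ratio of 1.10 and ranged from 0.398 to 2.64. Of these, 7 were higher and 3 lower, against 11.7% and 8.16% of all pairs, and 42 were neither. In the libraries as a whole the median ratio was 0.883 for the 13633 pairs at a promoter of any gene and 1.24 for the 9858 others. At the TGF-β genes, where only the promoter of the gene itself was counted, the classes were not the same. There the median was 1.00 for 15 promoter pairs, 1.04 for 12 pairs elsewhere in a gene and 1.27 for 25 pairs in the flanks. Of the 12 pairs 3, and of the 25 pairs 5, lay at the promoter of another gene. Of the 7 higher pairs 5 lay in the flanks, and of the 3 lower pairs 2 lay at promoters. Set against the median of pairs of the same kind (at a promoter of any gene, or not), 5 pairs were higher and 5 lower, against 10.5% and 5.59% of all pairs. Of the 5 flank pairs 4 were then no longer called, those of *TGFBR2*, *TGFB2*, *SMAD3* and *SMAD6*, and the fifth, near *TGFB1*, lay at the promoter of another gene. The higher calls in *SMAD3* intron 1 at 84.9 kb and *SMAD7* intron 3 and the 3 lower calls held, and the *TGFBR2* intron 5 peak and the *SMAD3* peak at 81.5 kb were called higher. Lower calls were added 21.2 kb upstream of *SMAD3* and 24.8 kb upstream of *SMAD7*.

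**Figure D3:**
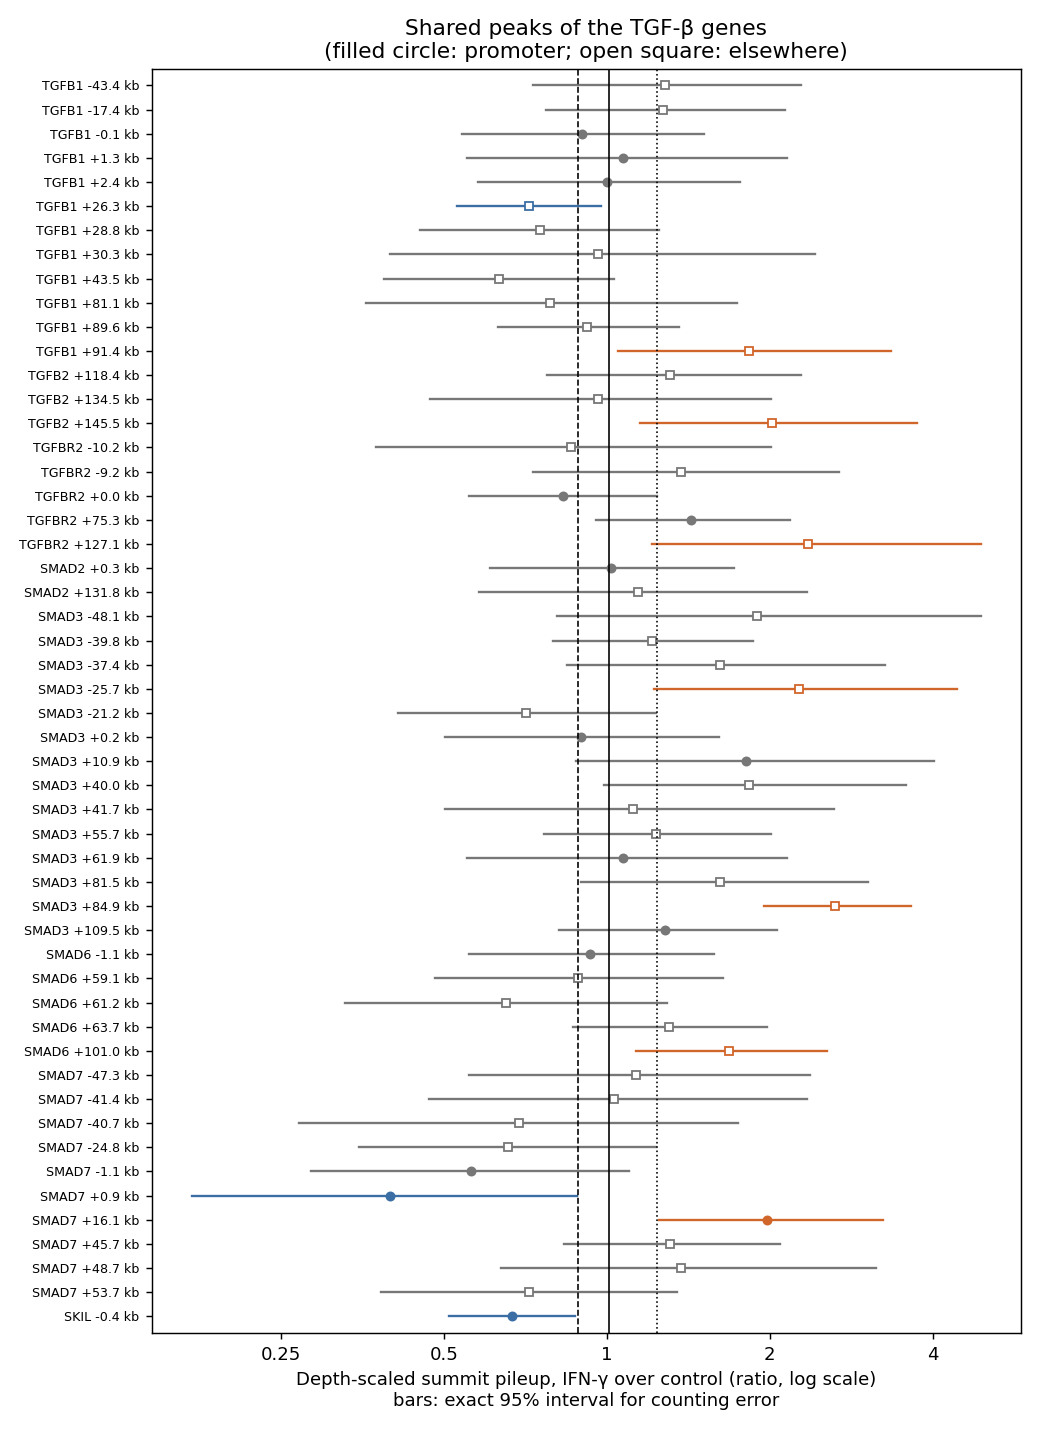
Depth-scaled ratio of summit fragments, IFN-γ over control (x axis, log scale), for the 52 shared peaks, named by gene and distance from the MANE Select TSS, with bars for the exact 95% interval of counting error. Filled circles are peaks at a promoter of the named gene and open squares others. Orange and blue mark intervals that leave out the median of all pairs (solid line, 1.01). The dashed and dotted lines are the medians of pairs at a promoter of any gene (0.883) and of other pairs (1.24). Orange bars mark 7 pairs, most of them far from the start site, and blue bars mark 3.

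*TGFB1* (ENSG00000105329) encodes the most widely expressed TGF-β ligand and lies on the minus strand of chromosome 19, from 41301587 to 41353922. Its promoter peak, 72 bp upstream of the TSS in the control library, was moderate and nearly the same in both libraries, with fold enrichments of 12 and 12.5. It rested on 29 control and 38 IFN-γ fragments, a scaled ratio of 0.90 (0.541 to 1.51), and in each library 20% of peaks ranked as high. Another promoter peak, in intron 1, 2.37 kb downstream, had 24 and 35 fragments and a ratio of 1.00 (0.579 to 1.76). The strongest site lay 26.3 kb downstream of the TSS, within the annotated gene but past the end, at 41330323, of its MANE Select transcript (the reference transcript agreed by RefSeq and Ensembl), and outside all *TGFB1* exons. There the fold enrichment was 42.3 in the control library and 17.3 after IFN-γ. The fragments at the summit were 86 and 90, which after scaling was a ratio of 0.719 (0.529 to 0.977), and the local background was 1.06 and 4.25. This site was thus lower by either measure in the IFN-γ library, and by more in fold enrichment, in which the background enters.

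The region of *TGFB1* is crowded with other genes, and 10 of its 14 control peaks and 10 of its 15 IFN-γ peaks overlapped the promoter of another protein-coding gene. Its 3 promoter peaks were shared with the promoter window of *TMEM91*, so they cannot be assigned to *TGFB1* alone. The peak 43.5 kb downstream was at the promoter of *CCDC97* and had fold enrichments of 19.0 and 7.93, with a ratio of 0.633 (0.388 to 1.03). At the promoter of *HNRNPUL1*, an RNA-binding protein gene, the stronger of a pair of neighbouring peaks had 50 and 67 fragments (ratio 0.920, 0.629 to 1.36). The weaker had 18 and 48 fragments and was called higher (1.83, 1.05 to 3.35). A repeat of GGAA, 17.4 kb upstream of *TGFB1*, had 26 and 48 fragments and a ratio of 1.27 (0.771 to 2.13).

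*TGFB2* (ENSG00000092969), the other ligand, on chromosome 1 from 218345336 to 218444619, had 0 peaks at its promoter and 0 in the rest of its 99.3 kb body, in either library. Its 3 peaks all lay downstream of the gene and all were shared. The nearest, 118.4 kb from the TSS, held the octamer CAGGAAGT or CCGGAAGT as well as an AP-1 motif and had 23 and 44 fragments, a ratio of 1.31 (0.776 to 2.28). The next had 15 and 21 fragments (0.962, 0.472 to 2.01). The farthest lay 145.5 kb from the TSS. It had fold enrichments of 7.69 and 16.5 from 17 and 50 fragments, and was called higher (2.02, 1.15 to 3.74).

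*TGFBR1* (ENSG00000106799), on chromosome 9 from 99104038 to 99154192, had the weak control peak in intron 1 described above, 0.42 kb from the TSS. Its IFN-γ peak was a different one, in intron 3, 32.4 kb downstream, with a fold enrichment of 5.91 from 14 fragments. Neither was shared, and no ratio could be formed.

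*TGFBR2* (ENSG00000163513), on chromosome 3 from 30606601 to 30694142, was by contrast bound strongly at the start site. The promoter peak spanned 931 bp in the control and 1007 bp in the IFN-γ library, and the summits were 48 bp apart. Its fold enrichment was 20.9 in the control library and 9.90 after IFN-γ, and 7.30% and 16.0% of peaks ranked as high. The 48 and 58 fragments gave a scaled ratio of 0.830 (0.556 to 1.24), which includes the median of all pairs, while the ratio of fold enrichments was 0.473. The local background was 1.34 and 4.96 fragments, so whether the promoter peak appears lower depends on the measure. The peak in intron 5, 75.3 kb downstream, had fold enrichments of 18.5 and 20.2 and went from 37 to 77 fragments (ratio 1.43, 0.954 to 2.18). In the IFN-γ library it ranked above the promoter peak of the gene, at 6.26%. It counted as a promoter peak because a transcript without a coding sequence starts nearby. The repeat downstream of the gene, 127 kb from the TSS, had fold enrichments of 5.50 and 15.0 and 12 and 41 fragments, and was called higher (2.35, 1.21 to 4.90). The other shared peaks, 10.2 and 9.21 kb upstream, had ratios of 0.859 (0.375 to 2.01) and 1.37 (0.732 to 2.68), and neither was called.

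**Figure D4:**
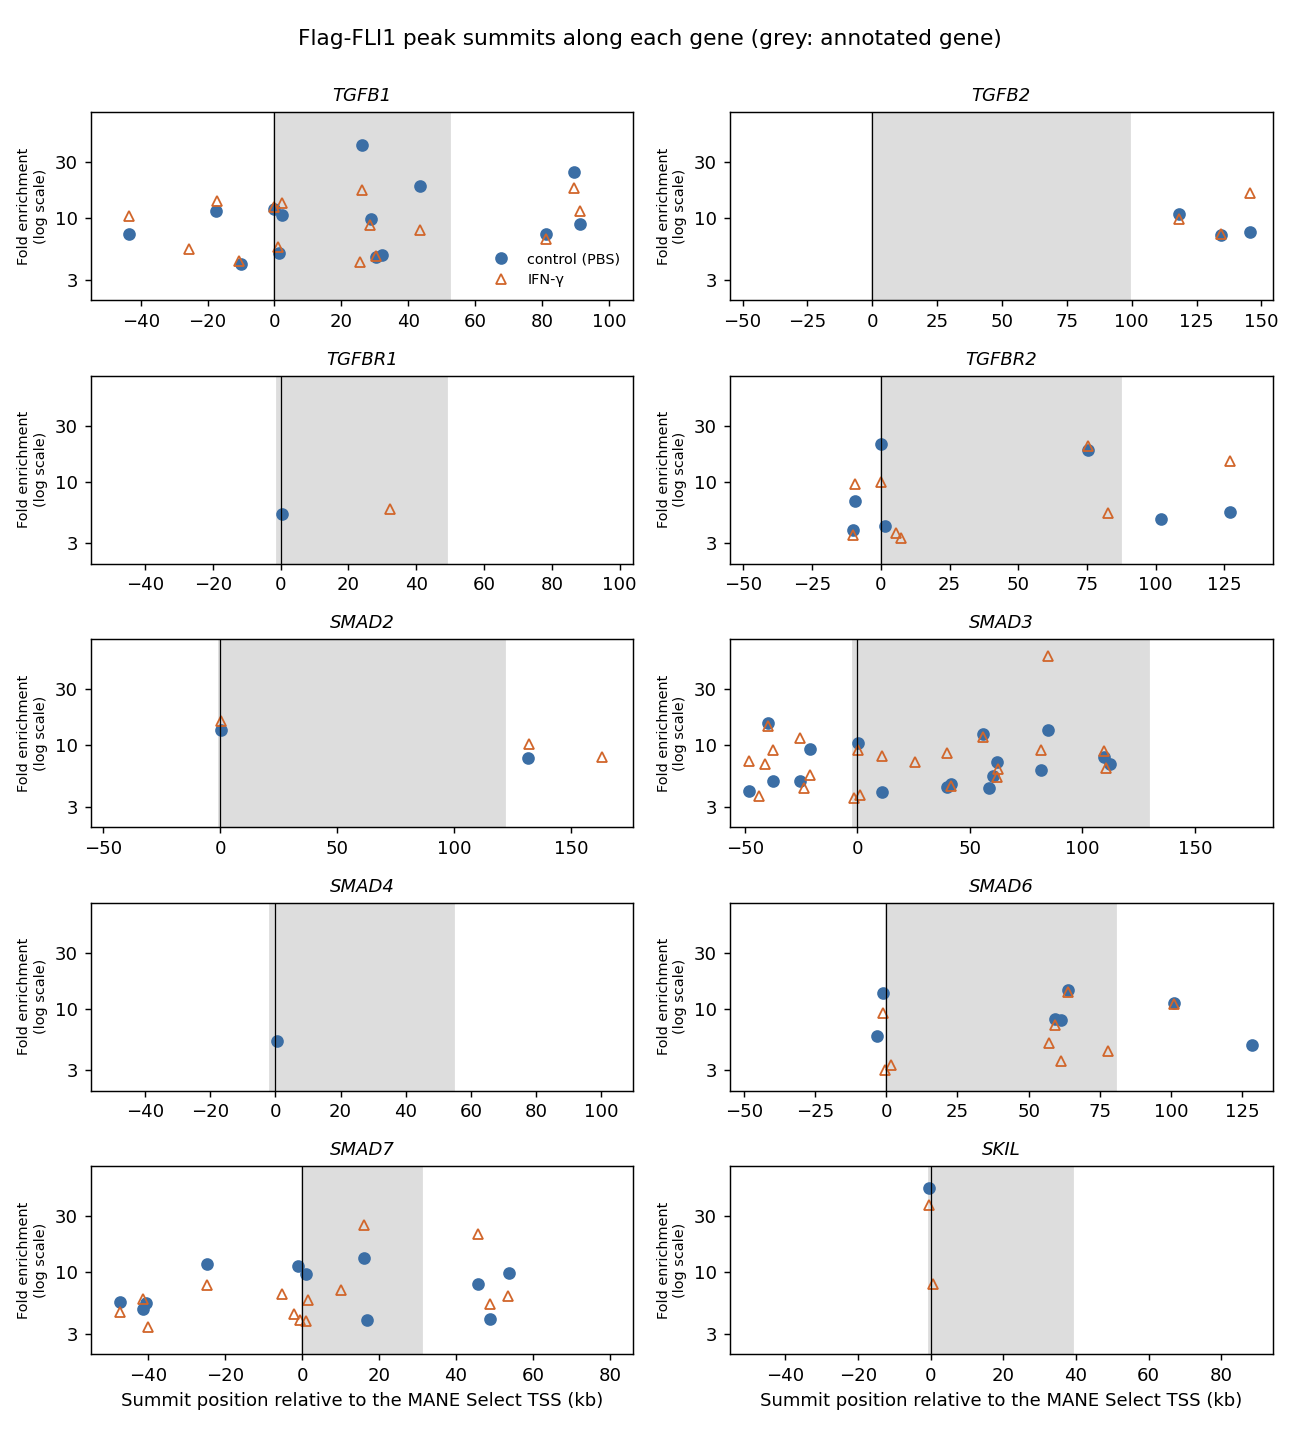
Fold enrichment of each peak (y axis, log scale) against the position of its summit relative to the MANE Select TSS of the gene (x axis, kb, negative upstream), with 1 panel per gene. Filled circles are control peaks, open triangles IFN-γ peaks, and grey marks the annotated gene. *TGFB2* has peaks only beyond its 3′ end, and the highest triangle is the *SMAD3* intron 1 site, at 57.8.

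*SMAD2* (ENSG00000175387), on the minus strand of chromosome 18 from 47808957 to 47931146, had a broad promoter peak in both libraries, 1531 and 1521 bp wide. Its values hardly differed, with fold enrichments of 13.6 and 16.2 from 27 and 40 fragments and a ratio of 1.02 (0.609 to 1.72). The other *SMAD2* peaks lay beyond the 3′ end, each with a GGAA run within 100 bp of the summit. The run had 6 units at the shared peak (15 and 25 fragments, ratio 1.14, 0.580 to 2.34). It had 7 units at the peak found in the IFN-γ library only.

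*SMAD3* (ENSG00000166949), on chromosome 15 from 67063763 to 67195173, had a moderate promoter and a strong intron. The peak over exon 1 had fold enrichments of 10.4 and 9.08 from 23 and 30 fragments, a ratio of 0.896 (0.503 to 1.61). The peak in intron 1, 84.9 kb downstream of the TSS, at chr15:67149913-67150728 in the control list, had 53 and 204 fragments. Its fold enrichment was 13.4 in the control and 57.8 in the IFN-γ library, the highest of all peaks at these genes, and 10.0% and 0.330% of peaks ranked as high in their own lists. The scaled ratio was 2.64 (1.95 to 3.65), at the 98.0th percentile of all pairs. Here the local background was 3.02 and 2.55 fragments. The control peak also reached the 3 kb around the TSS of a non-coding gene, ENSG00000259202. The octamer and the AP-1 motif shown above lay at this summit, which moved by 19 bp between the libraries. The TTCNNNGAA match lay farther from it, at bases 17 to 25 of the window centred on the IFN-γ summit.

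Of the 14 shared *SMAD3* pairs 12 lay above the median of all pairs and 10 above that of pairs of the same kind, and the median ratio was 1.45. Against the median of all pairs, the other pair called higher lay 25.7 kb upstream, with 14 and 46 fragments (2.26, 1.22 to 4.44), and 0 were called lower. Against the median of pairs of the same kind that pair was not called. The peak at 81.5 kb was then called higher. It reached the 3 kb around the TSS of the non-coding gene ENSG00000259202, so it was set against 0.883, the median of promoter pairs. The peak 21.2 kb upstream was called lower. Further intron 1 peaks had ratios of 1.83 (0.990 to 3.57) at 40.0 kb, 1.23 (0.767 to 2.01) at 55.7 kb and 1.62 (0.896 to 3.04) at 81.5 kb. Each interval included the median of all pairs. The strongest upstream peak, 39.8 kb from the TSS, had 37 and 65 fragments and a ratio of 1.21 (0.794 to 1.86). The strongest *SMAD3* promoter peak in the IFN-γ library was in intron 5, near an internal start site, with 31 and 58 fragments (1.28, 0.817 to 2.06). Of its peaks, 3 in the control and 6 in the IFN-γ library were not shared, and the strongest of the latter had 37 fragments, in intron 5.

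*SMAD4* (ENSG00000141646), on chromosome 18 from 51028528 to 51085045, had no peak in its 156.5 kb region other than the weak control peak in intron 1, 0.472 kb from the TSS. It had the most annotated start sites of the 10 genes, 20.

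*SMAD6* (ENSG00000137834), on chromosome 15 from 66702236 to 66782849, had 1 promoter peak of 3132 bp in the control library that corresponded to 3 separate IFN-γ peaks. Its summit, 1.13 kb upstream of the TSS, had fold enrichments of 13.5 and 9.18 from 28 and 38 fragments, a ratio of 0.932 (0.557 to 1.58). Intron 3 held 3 shared peaks. The strongest, 63.7 kb downstream, had fold enrichments of 14.4 and 13.9 from 38 and 72 fragments (1.3, 0.867 to 1.98), and the others had ratios of 0.883 (0.481 to 1.64) and 0.652 (0.329 to 1.29). Downstream of the gene, 101.0 kb from the TSS, 36 and 88 fragments gave a ratio that was called higher (1.68, 1.13 to 2.55). The local background there was 2.35 and 7.08, and the ratio of fold enrichments was 0.996, where the median of all pairs was 0.994, so the peak was not higher by fold enrichment.

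*SMAD7* (ENSG00000101665), on the minus strand of chromosome 18 from 48919853 to 48950965, had peaks called in both directions. In intron 3, 16.1 kb downstream of the TSS, the fold enrichment was 13.1 in the control and 25.2 in the IFN-γ library, from 26 and 75 fragments, and was called higher (1.98, 1.25 to 3.23). At exon 1 the fold enrichment was 9.65 and 3.84 from 19 and 11 fragments, and was called lower (0.398, 0.171 to 0.879), a ratio among the lowest 0.839% of all pairs. The control peak there spanned 2623 bp and overlapped 2 IFN-γ peaks, and its pair was the one with the nearest summit. Against the other, with 19 fragments, the ratio was 0.687 (0.344 to 1.37) and was not called. Upstream of the TSS a control peak of 1550 bp had 22 fragments against 18 in its pair (0.562, 0.284 to 1.10). The intron 3 site counts as a promoter peak only because it lies within 3 kb of the TSS of a transcript without a coding sequence. Its summit lay 1159 bp from that TSS in the control and 1171 bp in the IFN-γ library. Use of that start was not tested. Near the canonical start both control peaks with lower ratios were wide, 2623 and 1550 bp. Whether their width affected the ratios was not tested. The call at exon 1 depended on which IFN-γ peak was its pair, and the upstream pair was not called. The repeat downstream of the gene had 31 and 59 fragments and a ratio of 1.31 (0.833 to 2.09), while its fold enrichment went from 7.97 to 21.0 as the local background went from 3.02 to 1.86.

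The promoters of both inhibitory SMADs also held the palindrome GTCTAGAC, a known binding element of SMAD3 and SMAD4, inside the called peak, shown here in capitals on the strand of each gene.
SMAD7, chr18:48952207-48952236, minus strand: agcgacagggtGTCTAGACggccacgtgac
SMAD6, chr15:66702213-66702242, plus strand: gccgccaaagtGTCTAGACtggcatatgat
At *SMAD7* it lay 1257 bp upstream of the MANE Select TSS and 209 bp from the control summit. At *SMAD6* it lay 8 bp upstream of the TSS and 1124 bp from the control summit. In the IFN-γ library the *SMAD6* palindrome lay in a separate weak peak, with a fold enrichment of 3.03, and 94.3% of peaks ranked as high. These were the only peaks of the 10 genes that held the palindrome, 2 of 64 and 2 of 77. Among all peaks 0.273% and 0.257% held it. The control peaks that held it were 3132 bp (*SMAD6*) and 1550 bp (*SMAD7*) wide, against a median of 421 bp for all control peaks. In the IFN-γ library they were 543 bp and 1043 bp wide, against a median of 414 bp. Whether peak width accounts for the difference in shares was not tested. No summit lay within 100 bp of one.

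*SKIL* (ENSG00000136603), on chromosome 3 from 170357342 to 170396835, had the strongest promoter peak of the 10 genes, and no peak of its region lay elsewhere. The summit lay 33 bp upstream of the nearest annotated TSS in the control library, and the summits of the libraries were 5 bp apart. The fold enrichment was 52.4 in the control and 37.1 in the IFN-γ library, and 0.626% and 1.82% of peaks ranked as high. With 117 and 114 fragments the scaled ratio was 0.669 (0.512 to 0.874), called lower. The interval also lay below the median of promoter pairs, 0.883. An extra IFN-γ peak of 24 fragments, in intron 1, fell within the same wide control peak.

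The motifs under the summits of these genes were close in share to those of all peaks. Within 100 bp of the summit, CAGGAAGT or CCGGAAGT was found on either strand in 6 of 64 control peaks (9.38%, 3.52% to 19.3%) and in 7 of 77 IFN-γ peaks (9.09%, 3.73% to 17.8%), against 12.8% and 13.5% of all peaks. In windows of the same width 1 kb to either side it was found in 0.781% and 1.3% at these genes. At least 3 GGAA units in a row were found in 5 control and 8 IFN-γ peaks, 7.81% and 10.4%, against 7.88% and 12.7%. CAGAC, the half-site bound by SMADs, was found in 28.1% and 32.5%, against 32.0% and 30.1%. In the windows to either side it was found in 43.8% (35.0% to 52.8%) and 42.2% (34.3% to 50.4%) at these genes, against 32.1% and 30.6% for all peaks. The AP-1 motif TGANTCA was found in 23.4% and 24.7%, against 17.7% and 22.1% of all peaks and 5.47% and 3.90% of the windows to either side. TTCNNNGAA was found in 6.25% and 5.19%, against 5.33% and 6.38%, and GAAANNGAA, a core of interferon response elements, in 9.38% and 7.79%, against 8.42% and 13.4%. The interval of each share of these genes, except that of the flanking windows, included the share over all peaks.

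The rest of the pathway was described by 54 further genes of TGF-β superfamily ligands, receptors, SMADs, regulators and targets. A promoter peak was found at 50 of them in control cells (92.6%), at 47 after IFN-γ (87.0%) and at 46 in both. The shares of all protein-coding genes were 61.9%, 59.7% and 56.0%, and those with at least 4 TSSs reached 74.8% and 72.1% in the single libraries. The 54 genes were not selected by number of TSSs, so neither set of shares is a matched reference for them. The strongest was at *FKBP1A*, which encodes a protein that binds type I receptors, with fold enrichments of 132.8 and 69.0 from 272 and 288 fragments. Next by mean rank were *JUNB*, an AP-1 subunit gene and SMAD target (57.7 and 37.3), and *TGIF2*, a SMAD corepressor (23.9 and 31.8). They were followed by *ZFYVE9*, which encodes the receptor SMAD anchor SARA (37.2 and 18.2), and *GDF15*, a distant ligand of the superfamily (21.2 and 16.1). No promoter peak was found in either library at *ACVR1C*, *BMP4* and *LRRC32*, which encodes the TGF-β docking protein GARP. The genes called in the control library only were *BMP7*, *BMPR1B*, *LTBP2* and *SMAD9*, and the one called in the IFN-γ library only was *AMHR2*. These last 5 were named after their values were seen.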

How the data were processed

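Peaks of Flag-FLI1 were measured by ChIP-seq in HK1 cells, 1 library per condition. Per the labels and methods, the authors used cutadapt 1.18 for trimming, Bowtie2 2.3.4.1 for alignment (GRCh38), Picard for duplicates and MACS2 2.1.2, at p = 0.01, for calling peaks in each library. The weakest deposited peaks had −log10 values of 3.52 and 3.46 (unadjusted) and of 1.3 and 1.32 (q-value), so the lists were cut more strictly than stated. The use of the input in calling is not given in the sources used here. The deposited lists hold, for each peak, the fold enrichment over local background (a ratio), −log10 p, −log10 q and the summit; the deposited score, a display value, was not used.

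Fragments at each summit and the background were solved from fold and −log10 p, and 100% came out whole (largest relative error 6.21e-06). The median was 16 control and 22 IFN-γ fragments, so single ratios are imprecise, and all intervals cover counting error only. Relative depth was the ratio of the lowest backgrounds, 1.46. Genes and TSSs were from GENCODE 44, and sequences from GRCh38. Peaks were shared at an overlap of 1 bp. Motifs were searched on both strands. The genes and lists were chosen with earlier results of these data known. Named were the 10 genes, the 5 of the longer list with the highest mean rank and those without a promoter peak, neighbours at a described peak, and peaks that were the strongest of a gene or called higher or lower. Alternatives changed the cutoff, list length, windows, TSSs, overlap, motifs, ranking and scaling. The recovery of fragments, overlaps, promoter calls and motif search were tested on simulated data, with 100% of answers right. Of the sequences, 1 is not reported here. The tools were samtools 1.23.1, Python 3.11.15, pysam 0.24.0, pandas 2.3.3, matplotlib 3.10.9, scipy 1.17.1 and numpy 2.4.6.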

Additional observations from a re-analysis of the deposited data

How the results depend on the processing

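No paired analysis was possible because there was only 1 library for each treatment. The number of genes with a promoter peak stayed at 9 in the control and 7 in the IFN-γ library with all 7 alternatives tried (q under 0.01, q under 1e-05, equally long lists, a window of 1 kb, 1 TSS per gene, TSSs of coding transcripts and summits within 3 kb). A flank of 10 kb in place of 50 kb left 39 control and 48 IFN-γ peaks, which follows from the smaller region. The share of shared peaks fell to 65.6% and 54.5% when each peak had to be covered by 50%, and the IFN-γ share fell to 59.7% when summits had to lie within 100 bp. The octamer share was 1.56% and 1.3% for CCGGAAGT alone and 95.3% and 97.4% for the GGAA core. In fold enrichment in place of scaled fragments, the ratio left the interval of the scaled ratio at 5 peaks, to 0.996 at the *SMAD6* peak 101.0 kb downstream (the median of all pairs was 0.994), 0.473 at the *TGFBR2* promoter, 0.410 at the *TGFB1* peak 26.3 kb downstream, 4.30 at the *SMAD3* peak in intron 1 and 2.64 at the *SMAD7* repeat. Ranked by fold enrichment, the strongest IFN-γ promoter peaks went to 31.5% at *SMAD3* and 1.19% at *SKIL*. After the data were seen, 2 alternatives were added. Against the median of pairs of the same kind, 5 pairs were called higher and 5 lower, in place of 7 and 3, and with the strongest overlapping peak as partner 7 and 2 were. In all, 50 counts and shares under alternatives stayed within 1.5 times, or the interval, of the value reported, and 10 did not. With 1 library per condition, differences between libraries cannot be told apart from variation between precipitations, and a median summit of 16 fragments can show only large ratios.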
